A study of Xenopus laevis with 74 samples.

Results

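Animal caps that had received Noggin were compared with untreated animal caps at stage 13, the neural plate stage of Xenopus laevis. Animal caps are explants of the ectoderm at the animal pole of the blastula, and RNA was measured in pools of such explants by mRNA sequencing. The comparison used every stage 13 library whose label gives the neural or the epidermal lineage, which came to 6 of the 74 libraries of the series. The neural group was 3 libraries of caps in 100 ng/uL Noggin, the unit given by the labels (the methods give the same figure in ng/mL), and the epidermal group was 3 libraries of caps with no added factor. The methods describe pooled explants of wild-type embryos from 1 frog a day, and the p-values below measure the spread between such libraries only. By the methods of the study the Noggin caps were kept in a medium low in calcium and magnesium with albumin, and the untreated caps in a modified Ringer solution, so that Noggin and medium cannot be told apart. In such bulk samples fewer cells of a type and less RNA per cell cannot be told apart either.

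Cells of the animal cap produce BMP ligands and, left alone, form epidermis. BMP receptors phosphorylate Smad proteins, which switch on genes such as the ventx, msx, gata and id genes and the regulators of epidermis. Noggin binds BMP ligands outside the cell and keeps them from their receptors, and caps treated in this way take on neural plate identity, usually of anterior character, marked by SoxB1 and Zic factors.

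The count table gave 13397593 to 15857111 reads on genes in the neural libraries, against 15821837 to 20777673 in the epidermal libraries. Levels are in CPM, counts scaled to a common library size after TMM normalization, given for replicates 1, 2 and 3 in that order and with the L and S copies of a gene summed. Neural replicate 1 stood apart. Over the 13921 genes that averaged at least 1 CPM it differed from neural replicates 2 and 3 by a median of 0.74 and 0.65 on the log2(CPM + 1) scale, against 0.30 between those libraries. Across genes it was most like an epidermal library of stage 12 (Pearson r = 0.950), whereas neural replicates 2 and 3 were each most like the neural library of stage 12 with their own number (r = 0.984 and 0.986). For neural replicate 1 other values were close, at 0.945 with epidermal replicate 2 of stage 13 and 0.943 with neural replicate 1 of stage 12. With neural replicates 2 and 3 of stage 13 its r was 0.913 and 0.936. Epidermal replicate 1 also differed more from its group, by a median of 0.45 and 0.41, against 0.21 between epidermal replicates 2 and 3.

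Of 19684 genes tested, 374 were higher and 617 lower in neural than in epidermal caps (5.03% called, 1.9% higher and 3.13% lower; edgeR quasi-likelihood test, adjusted p of at most 0.05 after Benjamini and Hochberg). These adjusted p-values are the ones given below, and folds are log2 neural over epidermal. The median over all genes was 0.13. In the fit lacking neural replicate 1 there were 2242 higher and 2412 lower genes (23.6% called, 11.4% higher and 12.3% lower), among them all 374 of the higher calls and 615 of the 617 lower calls. The counts of list members called in that fit, given below, stand against these larger shares. List counts at an unadjusted p under 0.05 likewise stand against a share of all genes above the 5.03% called. In edgeR an unadjusted p of 0.048 went with an adjusted p of 0.21 (acta2). That share is not given here, so such counts are not shown to exceed it. Leaving out each of the other 5 libraries left 276 to 590 calls, and 49 higher and 182 lower calls were made whichever library was left out. DESeq2's Wald test called 1412 genes higher (7.17%) and 1303 lower (6.62%), 13.8% in all. With the replicate number as a block, edgeR called 444 higher and 734 lower of the same 19684 genes. List counts given below with the replicate block stand against these numbers. Groups without overlap were more frequent than calls, since all neural libraries lay above all epidermal libraries for 13.8% of genes and below them for 13.3%.

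The early neural factors formed the list with the most genes called higher. Of its 21 members 16 were higher, 0 were lower (1 at an unadjusted p under 0.05, 0 in DESeq2) and 5 were not called, with a median of 4.87, and without neural replicate 1 there were 18 called higher. Zic genes encode zinc finger factors that prepare ectoderm for neural fates. zic1 had 573, 197 and 299 CPM in the neural libraries, against 1.0498, 5.53 and 3.93 CPM in the epidermal libraries. Every neural library was above the highest epidermal library, and the difference was 6.67 (SE 0.71, adjusted p = 0.0019). zic2 had 207, 175 and 175 CPM in the neural libraries, against 3.27, 5.73 and 5.51 CPM in the epidermal libraries, a difference of 5.26 (SE 0.35, adjusted p = 0.00044). Here the neural libraries lay close together and the epidermal ones as well. zic4 was at 54.6, 21.8 and 25.0 CPM in the neural libraries, against 0.0583, 0.0674 and 0.117 CPM in the epidermal libraries, a difference of 8.57 (SE 0.66, adjusted p = 0.00058). In each of the 3 genes the groups were far apart, and each was called in all 6 fits that left out 1 library. foxd4l1.1, a forkhead factor of the early neural plate, had 31.6, 168 and 62.7 CPM in the neural libraries, against 0.175, 0.404 and 0.176 CPM in the epidermal libraries. It was also called in all 6 fits, with a difference of 8.42 (SE 0.81, adjusted p = 0.0014), and was highest in neural replicate 2.

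The SoxB1 factors sox2 and sox3, which hold cells in a neural progenitor state, were also present in epidermal caps. sox2 was at 235, 102 and 121 CPM in the neural libraries, against 16.04, 58.8 and 54.3 CPM in the epidermal libraries. All neural libraries were above all epidermal ones, but the difference of 1.83 (SE 0.52, adjusted p = 0.076) was not called and stayed uncalled in all 6 fits with 1 library left out. DESeq2 did call sox2 (adjusted p = 0.0088), while edgeR with the replicate number as a block did not (adjusted p = 0.13). sox3 had 1060.3, 449 and 614 CPM in the neural libraries, against 56.2, 209 and 176 CPM in the epidermal libraries, a difference of 2.27 (SE 0.51, adjusted p = 0.039). sox11, a SoxC factor of neural progenitors, had 314, 71.0 and 146 CPM in the neural libraries, against 19.7, 44.8 and 40.6 CPM in the epidermal libraries, a difference of 2.34 (SE 0.55, adjusted p = 0.045). In all 3 genes epidermal replicate 1 was the lowest library and neural replicate 1 the highest. The calls of sox3 and sox11 were lost without neural replicate 3 or any 1 epidermal library (adjusted p of 0.026 to 0.10 for sox3 and 0.014 to 0.19 for sox11 over the 6 fits), and with the replicate number as a block (adjusted p = 0.075 and 0.10). sox4, a second SoxC factor, was the most abundant uncalled member beside sox2, with 12.6, 34.0 and 25.2 CPM in the neural libraries, against 33.8, 65.5 and 51.9 CPM in the epidermal libraries. The neural libraries were low but overlapped the epidermal ones, with a difference of -1.07 (SE 0.42, adjusted p = 0.17).

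**Figure D1:**
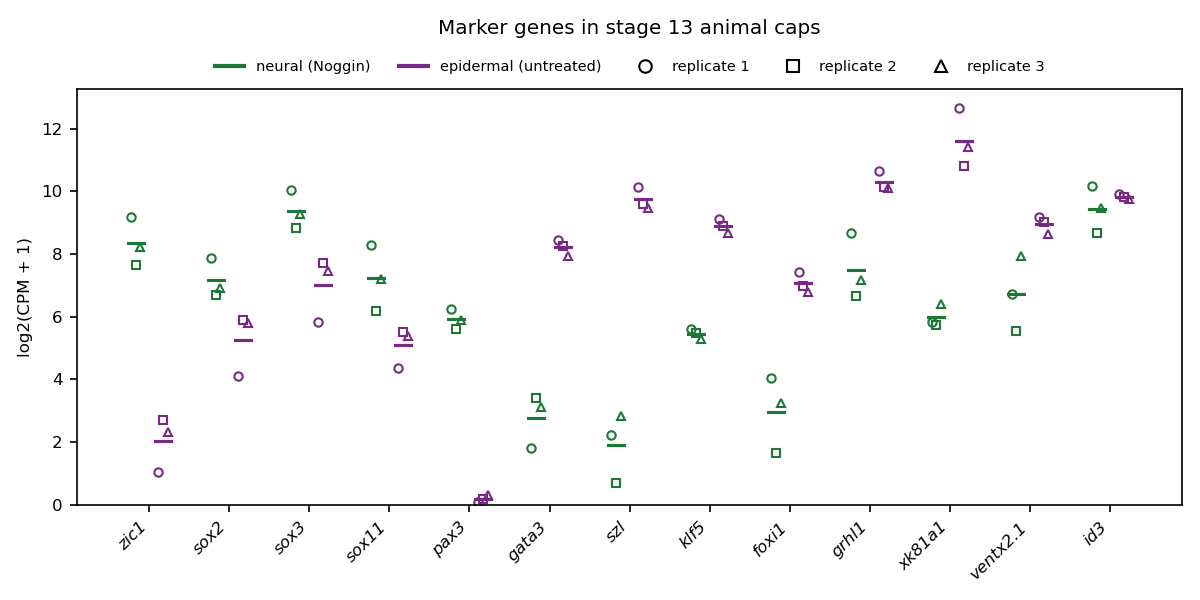
Levels of 13 marker genes in the 3 neural (green, left of each pair) and 3 epidermal (purple) libraries of stage 13, as log2(CPM + 1); symbols are single libraries and bars are means. zic1 and pax3 are separated by a wide gap, sox2 by a narrow one, and id3 overlaps between the groups.

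Anterior neural and eye field factors were higher in neural caps for 8 of 20 tested members, lower for 1 and not called for 11, with a median of 2.37. When neural replicate 1 was left out there were again 8 higher and 1 lower, with a median of 1.63. Over all genes the share called higher rose from 1.9% to 11.4% in that fit. With the replicate block 5 members were higher and 1 lower. The levels differed widely among neural libraries, and 12 of the 20 members were highest in neural replicate 1 among the neural libraries. rax, the retinal homeobox gene, had 88.7, 4.86 and 4.67 CPM in the neural libraries, against 0, 0.0674 and 0 CPM in the epidermal libraries. Neural replicate 1 was far above the other neural libraries, and the epidermal libraries held 1 read in all, which gave a ratio of 1398 (95% counting interval 251 to 55269). Its call (adjusted p = 0.014) was lost without any 1 epidermal library (adjusted p of 0.0025 to 0.11). The deposited TPM values of rax did not match these counts in epidermal caps, since they were 45.4, 6.88 and 6.87 in the neural libraries, against 2.71, 2.41 and 2.39 in the epidermal libraries. lhx2, a LIM factor of the eye field, had 31.1, 6.97 and 3.88 CPM in the neural libraries, against 0, 0.0674 and 0 CPM in the epidermal libraries. The epidermal libraries again held 1 read, a ratio of 618 (95% counting interval 110.4 to 24432), and the call (adjusted p = 0.0070) was lost without epidermal replicate 1 (adjusted p of 0.0025 to 0.056). otx2, which sets forebrain and midbrain identity, had 1046, 59.7 and 182 CPM in the neural libraries, against 9.80, 2.70 and 10.3 CPM in the epidermal libraries. All neural libraries were above the epidermal ones, with neural replicate 2 the lowest of them, and the difference was 5.81 (SE 1.08, adjusted p = 0.019). That call was lost without any 1 epidermal library (adjusted p of 0.0058 to 0.12 over the 6 fits). otx1, its paralogue, had 374, 14.3 and 71.0 CPM in the neural libraries, against 11.2, 9.24 and 7.50 CPM in the epidermal libraries, a difference of 4.04 (SE 0.98, adjusted p = 0.049) that was lost without neural replicate 3 or any 1 epidermal library (adjusted p of 0.0063 to 0.21) and with the replicate block (adjusted p = 0.090).

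Several forebrain genes were far higher in neural replicate 1 than in any other library. six3, a factor of the anterior neural plate, had 332, 8.47 and 12.22 CPM in the neural libraries, against 5.89, 2.16 and 2.35 CPM in the epidermal libraries. Its difference of 5.08 (SE 1.37, adjusted p = 0.066) was not called, and without neural replicate 1 it was 1.57 (adjusted p = 0.063). hesx1, a repressor of the anterior neural ridge, had 425, 3.61 and 19.4 CPM in the neural libraries, against 6.65, 14.0 and 7.68 CPM in the epidermal libraries. Neural replicate 2 lay below the epidermal range and neural replicate 3 just above it, and the difference of 3.99 (SE 1.40, adjusted p = 0.13) became 0.29 (adjusted p = 0.78) without neural replicate 1. pax6, an eye and forebrain factor chosen after its values were seen, had 73.0, 3.92 and 5.51 CPM in the neural libraries, against 5.31, 4.04 and 6.86 CPM in the epidermal libraries. Only neural replicate 1 stood above the epidermal libraries here. The member called lower was tbx3, a T-box repressor of the eye field, with 1.87, 6.101 and 2.52 CPM in the neural libraries, against 342, 266 and 260.2 CPM in the epidermal libraries and a difference of -6.37 (SE 0.52, adjusted p = 0.00074). It was called in all 6 fits that left out 1 library.

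Posterior neural factors were mostly not called, with 1 of 19 tested members higher, 1 lower and a median of 1.56, and 15 of the 19 were lowest in neural replicate 1 among the neural libraries. Without that library 7 were higher and 2 lower. pax5, a factor of the midbrain and hindbrain boundary, had 0.216, 9.28 and 11.9 CPM in the neural libraries, against 0, 0.135 and 0.176 CPM in the epidermal libraries. Neural replicates 2 and 3 were high and neural replicate 1 was close to the epidermal libraries, and the call (6.02, SE 1.41, adjusted p = 0.045) was lost without any 1 of the libraries other than neural replicate 1 (adjusted p of 0.0021 to 0.19). cdx4, a caudal factor of the trunk and tail, was lower, with 2.88, 5.42 and 3.51 CPM in the neural libraries, against 14.1, 27.0 and 29.8 CPM in the epidermal libraries and a difference of -2.58 (SE 0.45, adjusted p = 0.015). The call was lost without neural replicate 3, epidermal replicate 2 or epidermal replicate 3 (adjusted p of 0.0099 to 0.068). meis3 had 9.88, 22.3 and 65.1 CPM in the neural libraries, against 184, 75.2 and 69.5 CPM in the epidermal libraries, and mafb, a hindbrain factor, had 8.15, 67.5 and 38.3 CPM in the neural libraries, against 26.5, 35.5 and 38.8 CPM in the epidermal libraries. Neither was called, with -1.76 (SE 0.66, adjusted p = 0.15) for meis3 and 0.18 (SE 0.61, adjusted p = 0.89) for mafb.

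Neural border and crest factors were split, with 3 of 17 members higher, 3 lower and 11 not called, and with the replicate block 3 higher and 1 lower. Without neural replicate 1 there were 4 higher and 5 lower. The median was 0.28, or 0.36 with groups of at most 3 reads at their bound. pax3, a paired box factor of the neural border, had 75.2, 47.9 and 58.0 CPM in the neural libraries, against 0.0583, 0.135 and 0.234 CPM in the epidermal libraries. The gap was wide and the neural libraries close together, with a difference of 8.65 (SE 0.54, adjusted p = 0.00044). prdm1, a zinc finger repressor of the border and the sensory neurons, had 280.4, 213 and 162 CPM in the neural libraries, against 13.2, 23.1 and 19.3 CPM in the epidermal libraries, a difference of 3.56 (SE 0.35, adjusted p = 0.0015). Both were called in all 6 fits. ets1, a crest and vessel factor, was lower, with 2.24, 1.56 and 2.47 CPM in the neural libraries, against 74.7, 13.1 and 15.01 CPM in the epidermal libraries and a difference of -4.03 (SE 0.73, adjusted p = 0.017) that was lost without neural replicate 3 (adjusted p of 0.017 to 0.063). Epidermal replicate 1 was far above the other epidermal libraries for ets1. tfap2a, a factor of border and epidermis, had 323, 65.4 and 100.2 CPM in the neural libraries, against 378, 675 and 522 CPM in the epidermal libraries. The groups did not overlap, but the difference of -1.69 (SE 0.55, adjusted p = 0.11) was not called in edgeR with all libraries. It was called without neural replicate 1 (-2.66, adjusted p = 0.0025) and in DESeq2 (adjusted p = 0.040). hes4 had 241, 164 and 135 CPM in the neural libraries, against 124, 188 and 138 CPM in the epidermal libraries, with overlap and a difference of 0.26 (SE 0.31, adjusted p = 0.64).

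Of 9 preplacodal factors tested, 1 was higher and 1 lower, with a median of 0.16, and with the replicate block 0 were higher and 1 lower. In the fit lacking neural replicate 1 there were 1 higher and 3 lower, and the median changed sign to -1.46. foxi4.1, a forkhead factor of the placodal ectoderm, had 6.35, 3.24 and 17.8 CPM in the neural libraries, against 257, 336 and 243 CPM in the epidermal libraries. It was called lower in all 6 fits, with -4.92 (SE 0.62, adjusted p = 0.0043). foxi4.2, the paralogue of foxi4.1, had 118, 22.2 and 284 CPM in the neural libraries, against 455, 778 and 581 CPM in the epidermal libraries and was not called (-2.10, SE 0.71, adjusted p = 0.12), and dlx5 had 187, 49.7 and 82.7 CPM in the neural libraries, against 195, 223 and 249 CPM in the epidermal libraries and was called without neural replicate 1 (-1.75, adjusted p = 0.0054, against 0.19 with it).

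None of the 18 proneural and neuronal genes tested was higher in edgeR with all libraries (6 at an unadjusted p under 0.05, 5 in DESeq2 and 1 with the replicate block), 3 were lower and 15 were not called, with a median of 1.25. In the fit without neural replicate 1 there were 6 higher and 6 lower, and the median changed sign to -0.43. isl1, a LIM factor of sensory and motor neurons, had 2.24, 0.747 and 0.472 CPM in the neural libraries, against 15.5, 23.1 and 27.0 CPM in the epidermal libraries. It was below the epidermal levels in every neural library and was called in all 6 fits, with -4.26 (SE 0.63, adjusted p = 0.0082). dlc, a Delta ligand of Notch, had 4.04, 0.373 and 0.262 CPM in the neural libraries, against 52.8, 88.8 and 57.9 CPM in the epidermal libraries, a difference of -5.44 (SE 0.96, adjusted p = 0.015) that was lost without epidermal replicate 1 (adjusted p of 0.00036 to 0.069). dll1, another Delta ligand, had 75.7, 19.9 and 12.9 CPM in the neural libraries, against 252, 187 and 170.0 CPM in the epidermal libraries. It fell just outside the call (-2.49, SE 0.61, adjusted p = 0.051) and was called with the replicate block (adjusted p = 0.014) and without neural replicate 1 (adjusted p = 0.00093). nrarp, a target of Notch, had 245, 70.6 and 87.0 CPM in the neural libraries, against 212, 340.2 and 232 CPM in the epidermal libraries and was called without neural replicate 1 (-1.73, adjusted p = 0.0052, against 0.25 with it). These genes, picked by the naming rule given below, were all on the lower side, whereas the list median was positive. All neural libraries lay above all epidermal ones for 4 of the 18 members and below them for 6. Over all genes these shares were 13.8% and 13.3%.

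BMP targets and feedback genes were lower in neural caps for 12 of 17 tested members and higher for 0 (0 also at an unadjusted p under 0.05 and in DESeq2), and 5 were not called. The median was -3.64, and 13 were lower without neural replicate 1. szl, sizzled, a secreted feedback inhibitor of the enzymes that cut Chordin, had 3.68, 0.623 and 6.09 CPM in the neural libraries, against 1117, 776 and 714 CPM in the epidermal libraries. gata3, a GATA factor of ventral ectoderm, had 2.52, 9.65 and 7.61 CPM in the neural libraries, against 348, 302 and 243 CPM in the epidermal libraries. id4, an inhibitor of bHLH factors, had 3.46, 1.43 and 1.89 CPM in the neural libraries, against 112, 52.9 and 63.6 CPM in the epidermal libraries. All 3 were far below the epidermal range in every neural library, with -7.96 (SE 0.79, adjusted p = 0.0014) for szl, -5.49 (SE 0.52, adjusted p = 0.0014) for gata3 and -5.08 (SE 0.50, adjusted p = 0.0014) for id4, and were called in all 6 fits. gata2 had 196, 50.4 and 104 CPM in the neural libraries, against 1495, 1526 and 1364 CPM in the epidermal libraries and was also called in all 6 fits (-3.64, SE 0.47, adjusted p = 0.0050). Its level was highest in neural replicate 1 among the neural libraries.

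The BMP targets that were not called included id3, ventx2.1 and ventx2.2. id3 had 1154, 409 and 698 CPM in the neural libraries, against 969, 896 and 865 CPM in the epidermal libraries. Neural replicate 1 was above all epidermal libraries and neural replicates 2 and 3 were below them, with a difference of -0.27 (SE 0.36, adjusted p = 0.68), and without neural replicate 1 of -0.72 (adjusted p = 0.064). ventx2.1, a homeobox repressor of dorsal fates, had 104, 45.4 and 241 CPM in the neural libraries, against 578, 518 and 399 CPM in the epidermal libraries. All neural libraries were below the epidermal ones, with neural replicate 3 the nearest. The difference of -1.94 (SE 0.53, adjusted p = 0.068) was not called, and was called in 1 of the 6 fits that left out 1 library (adjusted p of 0.029 to 0.24). DESeq2 called ventx2.1 (adjusted p = 0.0088), and at stage 12 its difference in edgeR was -4.27 (adjusted p = 3.6e-06). ventx2.2, its close copy and chosen after its values were seen, had 85.9, 35.2 and 127 CPM in the neural libraries, against 53.6, 70.6 and 75.0 CPM in the epidermal libraries, with overlap and a difference of 0.31 (SE 0.43, adjusted p = 0.69). Reads shared by such near-identical ventx2 copies could have been split between them.

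Of 21 BMP ligands, receptors, Smads and antagonists tested, 2 were higher and 5 lower, with a median of 0.23. When neural replicate 1 was left out there were 5 higher and 7 lower. The ligand bmp7.1 had 1.01, 2.68 and 1.63 CPM in the neural libraries, against 133, 90.0 and 86.9 CPM in the epidermal libraries, lower in each neural library (-5.86, SE 0.47, adjusted p = 0.00067). The type I receptor bmpr1b had 36.3, 9.15 and 24.4 CPM in the neural libraries, against 0.292, 0.337 and 0.117 CPM in the epidermal libraries, higher in each neural library (6.52, SE 0.71, adjusted p = 0.0023). The antagonist chrd, Chordin, had 30.1, 18.24 and 5.61 CPM in the neural libraries, against 0.0583, 0.202 and 0.176 CPM in the epidermal libraries, also higher in each (6.89, SE 0.83, adjusted p = 0.0034). These 3 genes were called in all 6 fits. The ligand bmp4 had 161, 64.6 and 92.5 CPM in the neural libraries, against 211, 151 and 137 CPM in the epidermal libraries, with overlap through neural replicate 1, and was not called (-0.65, SE 0.37, adjusted p = 0.32), but was called without that library (-1.08, adjusted p = 0.026). acvr1, a type I receptor, had 115, 102 and 109 CPM in the neural libraries, against 158, 142 and 145 CPM in the epidermal libraries and was not called (-0.45, SE 0.24, adjusted p = 0.29). Of the others that were lower, smad1, a transducer of BMP signals, had 49.0, 39.4 and 34.4 CPM in the neural libraries, against 142, 162 and 158 CPM in the epidermal libraries (-1.91, SE 0.27, adjusted p = 0.0070).

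Epidermal transcription factors were lower for 10 of 20 members and higher for 0 (0 also at an unadjusted p under 0.05 and in DESeq2), and 10 were not called, with a median of -1.74. The lists overlap, so that gata2 and gata3 count here and among the BMP targets, and foxi1 here and among the ionocyte genes. Without neural replicate 1 there were 14 lower and 1 higher. klf5, a Krüppel-like factor of epithelia, had 47.6, 43.9 and 37.6 CPM in the neural libraries, against 547, 470.1 and 406 CPM in the epidermal libraries. The groups were tight and far apart (-3.46, SE 0.28, adjusted p = 0.00067), and the call was made in all 6 fits. grhl1, grainyhead-like 1, which switches on keratin genes, had 406, 99.8 and 142 CPM in the neural libraries, against 1608, 1134 and 1088 CPM in the epidermal libraries. foxi1, which specifies ionocytes, had 15.3, 2.12 and 8.45 CPM in the neural libraries, against 169.9, 125 and 110.1 CPM in the epidermal libraries. dlx3, a homeobox factor of the epidermis, had 93.0, 12.0 and 20.8 CPM in the neural libraries, against 560.3, 508 and 425 CPM in the epidermal libraries. For all 3 neural replicate 1 was the highest neural library, still below every epidermal library. grhl1 differed by -2.56 (SE 0.51, adjusted p = 0.025), foxi1 by -3.97 (SE 0.64, adjusted p = 0.011) and dlx3 by -3.57 (SE 0.70, adjusted p = 0.023). Without neural replicate 3, epidermal replicate 1 or epidermal replicate 2 the calls of grhl1 and dlx3 were lost (adjusted p of 0.00073 to 0.12 for grhl1 and 0.00039 to 0.11 for dlx3), and that of foxi1 was lost without epidermal replicate 1 (adjusted p of 0.0029 to 0.061). klf2 had 93.1, 76.0 and 184 CPM in the neural libraries, against 245, 384 and 351 CPM in the epidermal libraries and was not called (-1.47, SE 0.38, adjusted p = 0.057), but was called with the replicate block (adjusted p = 0.042).

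Keratin genes, the intermediate filaments of epithelia, were lower for 6 of 9 tested members and higher for 0 (0 also at an unadjusted p under 0.05 and in DESeq2), with a median of -1.87. Another 11 of the 32 listed fell below the filter on counts and 12 were not matched by symbol. xk81a1, the epidermal keratin known as EpK, had 55.7, 51.6 and 83.5 CPM in the neural libraries, against 6408, 1770.0 and 2722 CPM in the epidermal libraries. Neural libraries were alike, while epidermal replicate 1 was the highest library by far, and the difference was -5.84 (SE 0.55, adjusted p = 0.0014). krt16 had 0.0721, 0.249 and 0.0525 CPM in the neural libraries, against 6.71, 5.46 and 10.3 CPM in the epidermal libraries, low in every library and lower still in neural caps (-5.84, SE 0.74, adjusted p = 0.0045). krt8, a keratin of simple epithelia, had 1408, 977 and 843 CPM in the neural libraries, against 5060.2, 3519 and 3230.4 CPM in the epidermal libraries (-1.87, SE 0.30, adjusted p = 0.011). Its call was lost without neural replicate 3 or epidermal replicate 1 (adjusted p of 0.0020 to 0.060), and those of xk81a1 and krt16 were kept in all 6 fits. krt19 had 30.6, 109.9 and 103 CPM in the neural libraries, against 165, 43.5 and 43.7 CPM in the epidermal libraries and krt8.2 had 8.94, 27.5 and 16.7 CPM in the neural libraries, against 52.3, 32.1 and 22.3 CPM in the epidermal libraries. Neither was called, with -0.05 (SE 0.62, adjusted p = 0.98) for krt19 and -1.003 (SE 0.48, adjusted p = 0.25) for krt8.2. The summed keratin level was 4495, 2070.5 and 2145 CPM in the neural libraries, against 40475, 17012 and 18912 CPM in the epidermal ones.

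Junction and secreted genes of the epidermis were mixed, with 2 of 26 tested members higher, 7 lower and 17 not called, and a median of -0.47. In the fit lacking neural replicate 1 there were 5 higher and 8 lower. otog, otogelin, a secreted mucin-like protein, had 11.7, 19.3 and 31.1 CPM in the neural libraries, against 4082, 1222 and 1498 CPM in the epidermal libraries (-6.77, SE 0.65, adjusted p = 0.0014). ppl, periplakin of the desmosome, had 22.5, 14.7 and 23.5 CPM in the neural libraries, against 509, 138 and 187 CPM in the epidermal libraries (-3.78, SE 0.53, adjusted p = 0.0065). Both were called in all 6 fits, and both were highest in epidermal replicate 1. cldn1, a claudin of tight junctions, had 0.0721, 0 and 0 CPM in the neural libraries, against 22.7, 3.57 and 3.34 CPM in the epidermal libraries. The neural libraries held 1 read in all, a ratio of 499.5 for epidermal over neural (95% counting interval 89.2 to 19770). epcam, an adhesion molecule of epithelia, had 3431, 4766 and 3810.1 CPM in the neural libraries, against 1832, 2562 and 2119.7 CPM in the epidermal libraries. It was above the epidermal range in each neural library but not called (0.88, SE 0.26, adjusted p = 0.081), and was called without neural replicate 1 (0.98, adjusted p = 0.011). cldn4 had 1279, 3389 and 1645 CPM in the neural libraries, against 2642, 2005 and 2191 CPM in the epidermal libraries and was not called (-0.12, SE 0.37, adjusted p = 0.88).

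Genes of multiciliated cells were lower for 10 of 23 tested members, higher for 1 and not called for 12, with a median of -2.59. When neural replicate 1 was left out there were 16 lower and 1 higher. mcidas, which starts the multiciliated program, had 0.361, 2.05 and 0.787 CPM in the neural libraries, against 543, 269.5 and 296 CPM in the epidermal libraries. foxj1.2, a forkhead factor of ciliogenesis, had 0.505, 0.685 and 0.997 CPM in the neural libraries, against 127, 79.1 and 69.2 CPM in the epidermal libraries. Levels in neural caps were near 0 for both, with -8.42 (SE 0.69, adjusted p = 0.00074) for mcidas and -6.94 (SE 0.47, adjusted p = 0.00044) for foxj1.2, and both were called in all 6 fits. tuba1a, an alpha tubulin, had 62.7, 26.9 and 50.9 CPM in the neural libraries, against 2100.3, 625 and 691 CPM in the epidermal libraries (-4.60, SE 0.58, adjusted p = 0.0044), although tubulin genes are near-identical and their reads could be split by the counting. tubb4b had 759, 1822 and 1159 CPM in the neural libraries, against 2173, 1092 and 1428 CPM in the epidermal libraries and was not called (-0.33, SE 0.38, adjusted p = 0.64). rfx2, a regulator of cilia genes, had 219, 193 and 273 CPM in the neural libraries, against 449.9, 461 and 429 CPM in the epidermal libraries and was not called with all libraries (adjusted p = 0.057), but was called without neural replicate 1 (adjusted p = 0.016) and in DESeq2 (adjusted p = 0.012). The member called higher was tspan1, a tetraspanin, named after its values were seen, with 65.3, 801 and 524 CPM in the neural libraries, against 3.09, 13.2 and 10.3 CPM in the epidermal libraries (5.71, SE 0.94, adjusted p = 0.012), a call lost without epidermal replicate 1.

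Ionocyte and secretory cell genes were lower for 4 of 15 members and higher for 1, with a median of -2.84, and with the replicate block 3 were lower and 0 higher. Without neural replicate 1 there were 6 lower and 1 higher. ubp1, a grainyhead-family factor of ionocytes, had 0.649, 3.67 and 1.26 CPM in the neural libraries, against 67.5, 61.7 and 60.7 CPM in the epidermal libraries (-5.08, SE 0.62, adjusted p = 0.0036), called in all 6 fits. esrrg, an orphan nuclear receptor, had 0.0721, 0.0623 and 0.944 CPM in the neural libraries, against 24.8, 14.7 and 13.5 CPM in the epidermal libraries, with a difference of -5.52 (SE 0.91, adjusted p = 0.012) that was lost without epidermal replicate 1 (adjusted p of 0.0041 to 0.067). The carbonic anhydrase ca12 had 2.52, 7.97 and 14.6 CPM in the neural libraries, against 159, 31.1 and 28.7 CPM in the epidermal libraries. Neural libraries were all below the epidermal ones, but the spread within both groups was wide and the difference of -3.12 (SE 0.82, adjusted p = 0.061) was not called. atp6v1a, a proton pump subunit, had 64.5, 46.6 and 47.2 CPM in the neural libraries, against 61.0, 112 and 86.7 CPM in the epidermal libraries and was not called (-0.71, SE 0.32, adjusted p = 0.22).

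**Figure D2:**
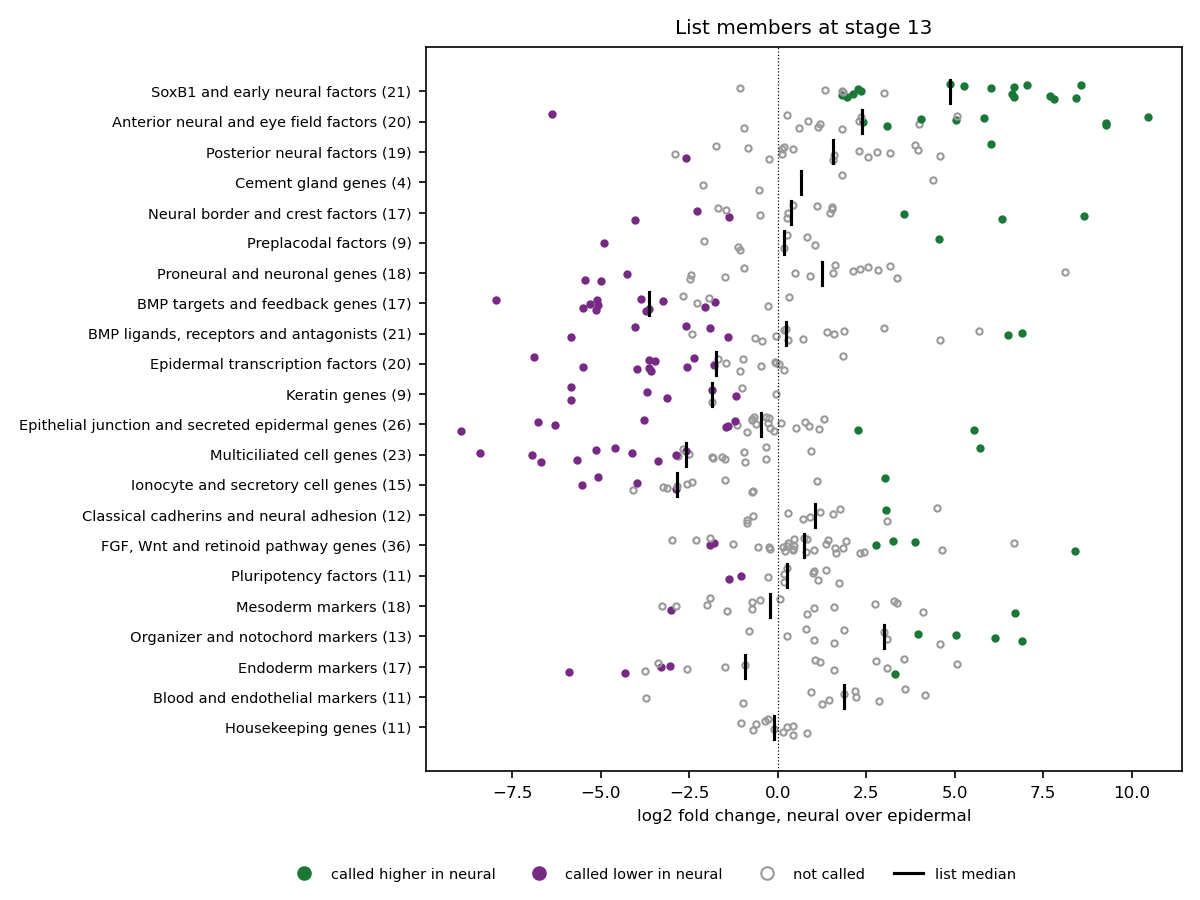
Each point is a tested member of 1 of the 22 gene lists, placed by its log2 fold change of neural over epidermal caps at stage 13; members with a group of at most 3 reads stand at their ratio or bound, and those with both groups so low are left out. Green marks genes called higher in neural caps, purple genes called lower, grey genes not called, and black ticks list medians; the number of members tested is in parentheses. Early neural factors lie to the right with a median of 4.87 and BMP targets to the left with a median of -3.64.

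Among called genes with a named symbol and at least 10 CPM in the higher group, the 8 with the largest rise were rax, fezf2, lhx2, pax3, zic4, hoxd13, foxd4l1.1 and cyp26c1. fezf2, a zinc finger factor of the forebrain, had 161, 2.37 and 2.31 CPM in the neural libraries, against 0.0583, 0 and 0.176 CPM in the epidermal libraries. Neural replicate 1 alone was high, and the difference of 9.28 (SE 2.09, adjusted p = 0.040) was lost without neural replicate 2 or any 1 epidermal library (adjusted p of 0.010 to 0.20). hoxd13, known as the most posterior gene of its Hox cluster, had 0.361, 19.5 and 12.3 CPM in the neural libraries, against 0, 0.0674 and 0 CPM in the epidermal libraries. It was high in neural replicates 2 and 3 and close to 0 in the other libraries, with 1 read over the epidermal libraries (ratio 555, 95% counting interval 99.1 to 21941), and its call was lost without neural replicate 3 or any 1 epidermal library (adjusted p of 0.00088 to 0.13). cyp26c1, which breaks down retinoic acid, had 393, 2.80 and 9.13 CPM in the neural libraries, against 0.175, 0.539 and 0.469 CPM in the epidermal libraries. It was highest in neural replicate 1, with 8.404 (SE 1.92, adjusted p = 0.041), a call lost without any 1 epidermal library (adjusted p of 0.0092 to 0.21) and with the replicate block (adjusted p = 0.094). The named genes with the largest fall were cmahp, val, hes8, mcidas, tuba1cl.1, szl, c2orf50 and znf534. hes8, of the Hes family of bHLH repressors, had 0, 0 and 0.0525 CPM in the neural libraries, against 15.7, 11.4 and 11.7 CPM in the epidermal libraries, with 1 read over the neural libraries, a ratio of 638 for epidermal over neural (95% counting interval 114 to 25255). cmahp had 0.0721, 0.0623 and 0.157 CPM in the neural libraries, against 164, 10.0 and 24.0 CPM in the epidermal libraries and val had 0, 0.187 and 0.210 CPM in the neural libraries, against 202, 23.3 and 20.6 CPM in the epidermal libraries. Both were near 0 in neural caps and were highest in epidermal replicate 1, with -9.25 (SE 1.3, adjusted p = 0.0067) for cmahp and -9.12 (SE 1.27, adjusted p = 0.0066) for val. tuba1cl.1 fell by 8.04, c2orf50 by 7.41 and znf534 by 7.01 on the log2 scale. All 8 of these lower genes kept their call whichever library was left out.

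The neural libraries differed among themselves in many genes. Of 6047 genes with a mean of at least 20 CPM in neural libraries, 545 had a range of at least 4-fold over the 3 libraries, against 127 of 6200 such genes over the epidermal libraries. Neural replicate 1 was the highest library in 267 of the 545, the lowest in 267 and in the middle in 11. The 8 named genes of widest range were retn.2, cyp26c1, actc1, pkdcc.2, hesx1, bhlhe40, wnt7a and fosl1, and the following values describe genes picked for that range. pkdcc.2, a secreted kinase, had 334, 2.61 and 11.8 CPM in the neural libraries, against 0.642, 0.337 and 0.234 CPM in the epidermal libraries. retn.2 had 0.0721, 128 and 29.4 CPM in the neural libraries, against 74.9, 74.4 and 0 CPM in the epidermal libraries. wnt7a, a Wnt ligand, had 0.361, 98.7 and 28.5 CPM in the neural libraries, against 0, 0.202 and 0.469 CPM in the epidermal libraries. Among the neural libraries pkdcc.2 was highest in replicate 1, as were cyp26c1 and hesx1, while retn.2 and wnt7a were lowest there. fosl1, an AP-1 factor, had 0.505, 104 and 27.2 CPM in the neural libraries, against 0.117, 0.337 and 0.293 CPM in the epidermal libraries, and bhlhe40, a bHLH repressor, had 0.433, 111 and 33.8 CPM in the neural libraries, against 2.39, 3.91 and 2.29 CPM in the epidermal libraries. Both followed the order of wnt7a, with replicate 2 the highest neural library. The differences between groups were 7.52 (SE 1.73, adjusted p = 0.042) for wnt7a and 7.43 (SE 1.58, adjusted p = 0.031) for fosl1, and both calls were lost without any 1 of the libraries other than neural replicate 1 (adjusted p of 0.0018 to 0.20 and 0.00095 to 0.18).

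Cement gland genes were also high in neural replicate 1 alone among the neural libraries. The cement gland is a mucus-secreting organ at the front of the embryo. ag1 had 664, 16.4 and 15.004 CPM in the neural libraries, against 548, 252 and 204 CPM in the epidermal libraries, and agr2 had 135, 5.29 and 2.73 CPM in the neural libraries, against 450.3, 86.5 and 87.6 CPM in the epidermal libraries. Neural replicate 1 was above the epidermal range for ag1 and inside it for agr2, while neural replicates 2 and 3 were far below it for both. No member of the list was called among the 4 tested in edgeR with all libraries (1 at an unadjusted p under 0.05, 0 in DESeq2). DESeq2 gave no adjusted p for ag1 and agr2, so that it could not call them. The list median was 0.64 and, without neural replicate 1, -1.92, where ag1 and agr2 were lower (-4.41, adjusted p = 0.0018 for ag1 and -5.70, adjusted p = 0.0090 for agr2). With the replicate block agr2 was called (adjusted p = 0.026). ncam1, a neural adhesion molecule named after its values were seen, had 139.9, 6.04 and 13.6 CPM in the neural libraries, against 18.14, 14.3 and 21.2 CPM in the epidermal libraries, and was again high in neural replicate 1 alone.

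**Figure D3:**
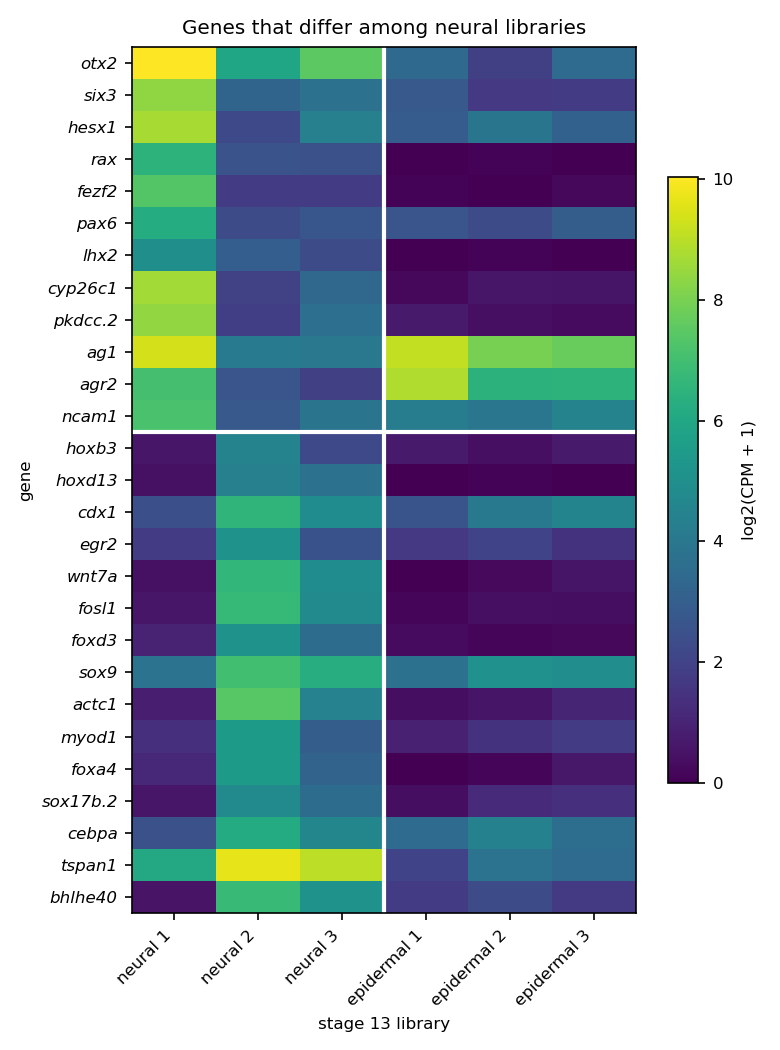
Levels of 27 genes, as log2(CPM + 1) in colour, in the 3 neural (left) and 3 epidermal libraries of stage 13. The genes were chosen after their values were seen. Those above the white line are highest in neural replicate 1 among the neural libraries, as hesx1 is with 425 CPM, and those below it in neural replicate 2, as actc1 is with 171 CPM.

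Markers of other germ layers were measured beside these results, since the caps could hold such cells. The 18 mesoderm markers tested summed to 56.2, 465 and 129.5 CPM in the neural libraries, against 53.4, 126 and 162 CPM in the epidermal libraries, with 1 higher, 1 lower and a median of -0.22, and with 6 higher, 1 lower and a median of 0.13 without neural replicate 1 (2 higher and 1 lower with the replicate block). actc1, the actin of heart and skeletal muscle, had 0.793, 171 and 20.7 CPM in the neural libraries, against 0.292, 0.472 and 1.06 CPM in the epidermal libraries. Neural replicate 2 stood far above the rest and neural replicate 1 lay in the epidermal range. The difference of 6.70 (SE 1.60, adjusted p = 0.047) was lost without any 1 of the libraries other than neural replicate 1 (adjusted p of 0.0037 to 0.23) and with the replicate block (adjusted p = 0.067). foxf1, a factor of ventral and visceral mesoderm, had 0.216, 0.373 and 0.734 CPM in the neural libraries, against 2.92, 4.25 and 3.93 CPM in the epidermal libraries and was lower (-3.02, SE 0.66, adjusted p = 0.034). Its call was lost without any 1 of the same libraries (adjusted p of 0.016 to 0.11) but kept with the replicate block (adjusted p = 0.038). vegt had 7.43, 129 and 34.7 CPM in the neural libraries, against 7.87, 71.3 and 83.1 CPM in the epidermal libraries and acta2 had 29.4, 65.9 and 45.9 CPM in the neural libraries, against 31.2, 23.3 and 25.4 CPM in the epidermal libraries, and neither was called. Among the markers mespb, a mesoderm bHLH factor, had 0 reads in every neural library, against 1, 5 and 16 reads in the epidermal libraries, and was not called. In TPM, a unit per transcript length, actc1 was at 1.57, 249.6 and 31.1 in the neural libraries, against 0.290, 0.440 and 1.40 in the epidermal ones, and at 13.4 ± 10.1 (SD, n = 3) in ventral mesoderm caps of stage 13, which were run on another sequencer.

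Organizer and notochord markers were higher for 4 of 13 tested members and lower for 0 (0 also at an unadjusted p under 0.05 and in DESeq2), with a median of 3.09, and 3.01 with groups of at most 3 reads at their bound. foxa4, a forkhead factor of the notochord and floor plate, had 1.23, 43.4 and 8.13 CPM in the neural libraries, against 0, 0.135 and 0.586 CPM in the epidermal libraries. gsc, goosecoid of the organizer, had 26.9, 3.98 and 2.15 CPM in the neural libraries, against 0.408, 0.404 and 0.176 CPM in the epidermal libraries. foxa4 was highest in neural replicate 2 and gsc in neural replicate 1, with 6.14 (SE 1.44, adjusted p = 0.045) for foxa4 and 5.03 (SE 1.050, adjusted p = 0.030) for gsc. The call of foxa4 was lost without any 1 of the libraries other than neural replicate 1 (adjusted p of 0.0059 to 0.19) and that of gsc without any 1 epidermal library (adjusted p of 0.013 to 0.15). not had 8.87, 57.8 and 30.1 CPM in the neural libraries, against 14.8, 86.4 and 69.1 CPM in the epidermal libraries and pnhd had 20.9, 5.98 and 7.19 CPM in the neural libraries, against 1.17, 1.95 and 6.097 CPM in the epidermal libraries, with overlap and no call. The list summed to 101, 139 and 68.4 CPM in neural libraries, against 19.7, 90.7 and 79.1 CPM in epidermal ones.

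Endoderm markers were higher for 1 of 17 tested members and lower for 4, with a median of -0.94, and without neural replicate 1 for 4 and 5. a2m, a protease inhibitor of the alpha-2-macroglobulin family, had 394, 1312 and 1056 CPM in the neural libraries, against 62.0, 102 and 112 CPM in the epidermal libraries, a difference of 3.32 (SE 0.47, adjusted p = 0.0070) that was lost without epidermal replicate 1 (adjusted p of 0.00056 to 0.052). The list summed to 414, 1389 and 1091 CPM in neural libraries, of which a2m was the most, against 178, 202 and 204 CPM in epidermal ones. gata4 had 2.96, 1.93 and 1.68 CPM in the neural libraries, against 16.6, 23.7 and 24.0 CPM in the epidermal libraries (-3.29, SE 0.42, adjusted p = 0.0048) and was lower in all 6 fits. bix1.2, a Mix-family homeobox gene, had no reads in neural libraries and 5.77, 3.101 and 2.05 CPM in epidermal ones, at least 59.9-fold lower in neural caps with a floor of 3 reads over the group, and its call was lost without epidermal replicate 1 (adjusted p of 0.0053 to 0.057). gata5 and foxa1 were not called. Of 11 blood and endothelial markers tested none was called in edgeR with all libraries (5 at an unadjusted p under 0.05, 3 in DESeq2), the median was 1.88 and the sum was 10.7, 102 and 50.3 CPM in neural libraries, against 19.4, 32.8 and 22.3 CPM in epidermal ones, with cebpa the highest at 4.62, 70.7 and 23.7 CPM against 10.3, 20.3 and 11.3 CPM. In the fit lacking neural replicate 1 there were 5 higher and 1 lower. The part of such cells in the results above was not tested.

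Pathway genes of FGF, Wnt and retinoid signaling were higher for 4 of 36 tested members, lower for 2 and not called for 30, with a median of 0.63, or 0.74 with low groups at their bound. When neural replicate 1 was left out there were 7 higher and 3 lower of the 36, against 11.4% and 12.3% of all genes in that fit. sfrp2, a secreted Wnt inhibitor, had 541, 449.9 and 508 CPM in the neural libraries, against 31.1, 37.1 and 33.5 CPM in the epidermal libraries. The libraries within each group were alike, and the difference was 3.88 (SE 0.27, adjusted p = 0.00044). fzd7, a Wnt receptor, had 665, 382 and 488 CPM in the neural libraries, against 35.3, 109 and 80.9 CPM in the epidermal libraries (2.77, SE 0.44, adjusted p = 0.010). Both were called in all 6 fits. rdh10, which makes retinal from retinol, had 76.4, 136 and 86.8 CPM in the neural libraries, against 431, 383 and 225 CPM in the epidermal libraries and was lower (-1.80, SE 0.35, adjusted p = 0.022), a call lost without neural replicate 3, epidermal replicate 1 or epidermal replicate 2 (adjusted p of 0.013 to 0.11). fgfr4 had 622, 110.4 and 250.2 CPM in the neural libraries, against 212, 262 and 249 CPM in the epidermal libraries, with neural replicate 1 above and neural replicate 2 below the epidermal range (0.44, SE 0.52, adjusted p = 0.64), and rarg had 392, 223 and 223 CPM in the neural libraries, against 243, 217 and 229 CPM in the epidermal libraries (0.28, SE 0.29, adjusted p = 0.60).

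Of 12 cadherins and neural adhesion genes 1 was higher and 0 lower (1 at an unadjusted p under 0.05, 0 in DESeq2), with a median of 1.06, and without neural replicate 1 there were 4 higher and 0 lower. pcdh19, a protocadherin of the neural plate, had 44.1, 77.9 and 101 CPM in the neural libraries, against 2.62, 14.9 and 9.32 CPM in the epidermal libraries (3.05, SE 0.61, adjusted p = 0.025). Its call was lost without neural replicate 3, epidermal replicate 1 or epidermal replicate 3 (adjusted p of 0.0083 to 0.077). cdh1, E-cadherin, had 337, 521 and 424 CPM in the neural libraries, against 1033, 612 and 678 CPM in the epidermal libraries, and cdh3, C-cadherin of the early embryo, had 614, 570.1 and 668 CPM in the neural libraries, against 276, 454 and 409 CPM in the epidermal libraries. The groups did not overlap in either, with -0.86 (SE 0.30, adjusted p = 0.13) for cdh1 and 0.70 (SE 0.27, adjusted p = 0.16) for cdh3, and neither was called. Of 11 pluripotency factors 2 were lower and 0 higher (3 at an unadjusted p under 0.05, 2 in DESeq2), with a median of 0.26, and with the replicate block 0 were lower. Without neural replicate 1 there were 2 higher and 2 lower, with a median of 0.58. myc had 117, 76.5 and 76.8 CPM in the neural libraries, against 175, 264 and 269 CPM in the epidermal libraries (-1.39, SE 0.31, adjusted p = 0.035) and pou5f3.1, an Oct4-type factor, had 966, 880.0 and 1081 CPM in the neural libraries, against 1672, 2417 and 1913 CPM in the epidermal libraries (-1.04, SE 0.25, adjusted p = 0.049). Both calls were lost without any 1 of the libraries other than neural replicate 1 (adjusted p of 0.0051 to 0.14 and 0.013 to 0.18) and with the replicate block (adjusted p = 0.057 and 0.059). tcf7l1, a repressor of Wnt targets, had 810.3, 185 and 376 CPM in the neural libraries, against 281, 489.9 and 373 CPM in the epidermal libraries and was not called (0.26, SE 0.48, adjusted p = 0.78). pou5f3.2 had 431, 1632 and 1624 CPM in the neural libraries, against 401, 1614 and 1263 CPM in the epidermal libraries, so that the libraries numbered 1 were low in both groups. None of the 11 housekeeping genes tested was called in edgeR with all libraries (2 at an unadjusted p under 0.05, 0 in DESeq2), with a median of -0.10, whereas without neural replicate 1 there were 1 higher and 4 lower, with a median of -0.49.

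The comparison at stage 12, the stage before it in the same time courses, served to ask whether the neural effect differed between stages. At stage 12 edgeR called 1468 genes higher and 1333 lower (14.2% of the same 19684, 7.46% higher and 6.77% lower). Of the genes higher at stage 13, 279 (74.6%) were also higher at stage 12, which is 19.0% of the stage 12 list. Of those lower at stage 13, 322 (52.2%) were also lower at stage 12, which is 24.2% of that list, and 1 gene was called in opposite directions. The interaction of lineage and stage in edgeR called 0 of 19684 genes (0.0%), with 1016 at an unadjusted p under 0.05, whereas DESeq2 called 57 (0.29%). With each time course as a block, since libraries of 1 lineage and number deviated together at both stages, 131 genes were called (0.666%), 37 with a positive and 94 with a negative interaction. A call in 1 stage and not in the other is therefore not shown to be a difference between stages. The 131 rest on a fit chosen after seeing the data.

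Listed genes made up 12 of the 131. prdm1 had 144, 163 and 125 CPM in neural libraries of stage 12, against 74.3, 122 and 110.5 CPM in epidermal ones, so that its difference was 3.56 at stage 13 and 0.49 at stage 12 (interaction with the course block 3.08, adjusted p = 0.0014, and 0.051 without the block). pax3 differed by 8.65 at stage 13 and 5.25 at stage 12 (interaction with the course block 3.36, adjusted p = 0.023, and 0.60 without the block). zic1 differed by 6.67 at stage 13 and 4.48 at stage 12 (interaction 2.25, adjusted p = 0.014, and 0.77 without the block). The epidermal level of zic1 was 1.0498, 5.53 and 3.93 CPM at stage 13 and 7.66, 19.7 and 16.3 CPM at stage 12. xk81a1 differed by -5.84 at stage 13 and -4.32 at stage 12 (interaction -1.58, adjusted p = 0.043, and 0.99 without the block). Its epidermal levels were 1518, 329.6 and 557 CPM at stage 12. id3 had 237, 286 and 191 CPM in neural libraries of stage 12, against 1160.2, 1040.5 and 976 CPM in epidermal ones, a difference of -2.15 (adjusted p = 0.00013). All neural libraries then lay below the epidermal ones, and its interaction was not called (unadjusted p = 0.00051, adjusted p = 0.59, and 0.089 with the course block).

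At stage 12 neural replicate 1 was not far above the other neural libraries in hesx1, six3 or ag1, although it was the highest of them for six3. hesx1 was at 9.45, 1.56 and 9.49 CPM in neural libraries, against 5.86, 17.6 and 9.64 CPM in epidermal ones, six3 at 14.5, 5.13 and 8.81 CPM against 2.24, 0.929 and 1.198 CPM, and ag1 at 10.8, 15.4 and 11.6 CPM against 387, 55.1 and 65.1 CPM. The 4 cement gland genes tested summed to 829, 25.4 and 19.1 CPM in neural libraries of stage 13, against 14.4, 21.3 and 14.7 CPM in those of stage 12. For the 20 anterior factors tested the sums were 3201, 352 and 792 CPM at stage 13, against 850, 383 and 636 CPM at stage 12. Replicate 1 was thus the highest neural library in that sum at both stages. actc1 was at 16.4, 136 and 15.06 CPM in neural libraries, against 0.145, 0.858 and 0.285 CPM in epidermal ones, so that replicate 2 was the highest neural library at both stages and replicate 1 was low at stage 13 only.

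**Figure D4:**
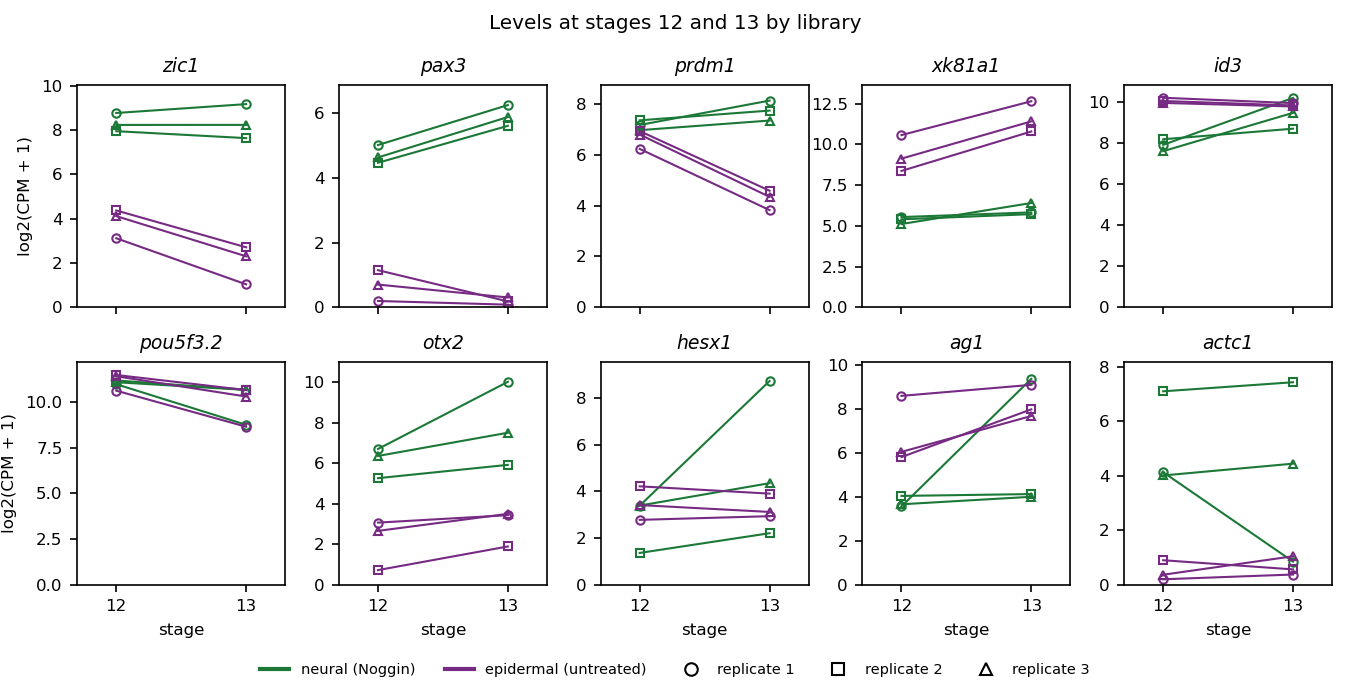
Levels of 10 genes at stages 12 and 13 as log2(CPM + 1), with lines joining neural (green) or epidermal (purple) libraries of 1 replicate number. prdm1 and zic1 fall in epidermal caps, hesx1 and ag1 rise most in neural replicate 1, and actc1 falls in that library.

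With the L and S copies kept apart, 485 gene copies were higher and 816 lower of 27424 tested (4.74% called, 1.77% higher and 2.98% lower). Of 6326 genes with both copies tested, 118 had both called in 1 direction, 1 had them called in opposite directions, and 466 had 1 copy called, of which 366 had the other copy on the same side of 0. sfrp2.L differed by 6.17 and sfrp2.S by 3.05, both called. The epidermal level was 1.39, 5.05 and 4.03 CPM for sfrp2.L and 29.6, 32.0 and 29.3 CPM for sfrp2.S. foxi1.L differed by -2.97 and foxi1.S by -6.26, both called. ubp1.L differed by -7.02 and was called, and ubp1.S by -1.09 and was not (adjusted p = 0.44). The difference between copies was not tested.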

How the data were processed

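Bulk mRNA sequencing libraries of animal caps were analysed from the tables as deposited. The deposited counts are whole numbers per gene copy, made by the authors with STAR on the X. laevis genome 9.2 and not normalized. The authors made the TPM values with RSEM. These were used for actc1 levels across lineages, for rax beside its counts and for 1 alternative test. How reads common to L and S copies were counted is not given in the sources used here, so counts of both copies of a symbol were summed (45656 rows became 34788 genes). The filter kept the 19684 genes that reached 15 counts in any of the 74 libraries.

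The 6 stage 13 libraries were compared with the robust quasi-likelihood F test of edgeR 4.0.16 (R 4.3.3, TMM scaling, Benjamini-Hochberg adjustment, threshold 0.05). The SE of a log2 fold change is its size divided by the square root of F. Tested on simulated data for this comparison, with 19684 genes, edgeR recovered 48% of 100 genes changed 4-fold and 98% of 100 changed 16-fold. It made 25 false calls, a larger share of all its calls than the threshold of 0.05. In the simulation a gene had the same spread in all 6 libraries, so that none stood apart as neural replicate 1 did. The changed genes were drawn from those with many reads, and recovery in the real data can differ. An exact permutation test of 3 against 3 cannot go below p = 0.1 and was not used. Intervals on ratios of reads are exact, at 95%, and cover counting error only, and the floor for a group with no reads was 3 counts over the group. Depth was 13397593 to 20777673 counts a library, so that 1 read was under 0.1 CPM in each.

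The main fit did not pair the libraries. Replicate numbers were tried as pairs in a block, since deviations from the group means correlated between same-numbered neural and epidermal libraries of stage 13 (r = 0.19, 0.11 and 0.11). Neural 2 with epidermal 3 (r = 0.10) and neural 3 with epidermal 2 (r = 0.099) correlated almost as much, so that a pairing of numbers 2 and 3 is not shown. The fit with that block and fits with DESeq2 1.42.0, limma 3.58.1, other scaling, other filters and each library left out were alternatives. DESeq2 gave no adjusted p for some genes, which it could therefore not call. Among the named genes these were ag1, agr2, rax, six3, fezf2, cyp26c1, pkdcc.2 and val. The fit of the interaction with a block for each time course was chosen after seeing the data.

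Genes are named in the text by a rule: genes that the study names for both lineages, the 3 called members of smallest adjusted p and the 2 uncalled members of highest mean CPM in each list, the 8 called genes of largest change in each direction with at least 10 CPM in the higher group, and the 8 of widest range over the neural libraries with at least 20 CPM. smad1, ventx2.2, pax6, ncam1, mespb and tspan1 fall outside it and were chosen after their values were seen. The members and the 22 lists (403 genes) were chosen with earlier results of these data known. Some genes are on several lists and are counted in each. Some genes that meet the rule are not reported here. No sequence is shown.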

Additional observations from a re-analysis of the deposited data

How the results depend on the processing

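The count of 991 genes called at stage 13 became 2715 with DESeq2 (1412 higher and 1303 lower), 1549 without the filter, 406 in a test against a log2 fold change of 1, 5566 in a single fit of all libraries (3058 higher and 2508 lower), 5459 with voom and sample weights (2849 higher and 2610 lower), and 276 to 4654 with 1 library left out, against 374 higher and 617 lower in the report. With L and S copies apart the count of 1301 became 3611, 533, 7582 and 7349 with DESeq2, the test against a fold, the single fit and voom, and 345 to 6347 with 1 library left out. At stage 12 the count of 2801 became 622 in the test against a fold and 4543 in the single fit, and 1347 to 2394 with 1 library left out. The interaction count of 0 became 57 with DESeq2, 1 with DESeq2-type size factors, 4 without the filter, 131 with the course block, 232 in the single fit, 2 with voom, 1 after thinning to equal depth and 0 to 1 with 1 library left out. The causes of these moves were not tested.

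With the replicate block there were 1178 calls at stage 13, 1808 with copies apart, 3207 at stage 12 and 0 in the interaction. Of the 114 genes of the naming rule the block changed the call of 11, those given above among them, and of no other. No named gene reversed a called direction under any alternative run. Leaving out epidermal replicate 1 lost the calls of 30 named genes, the most of any single library, and leaving out neural replicate 1 lost 0 and added 14. With 3 libraries a group the recovery of 4-fold changes on simulated data was 48%, so that an uncalled gene of that size is not shown to be equal.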
